A study of Rattus norvegicus with 8 samples.

Results

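Late estradiol against ovariectomy alone was compared on 4 of the 8 arrays of the study: the 2 arrays from rats given estradiol late and the 2 from rats left without it. All animals were female rats of the Norway Brown strain, 18 to 22 months old, and whole-heart total RNA was hybridized to Affymetrix arrays. Rats of the ovariectomy group lost their ovaries and got no hormone. Rats of the late estradiol group lost their ovaries and received, 9 weeks after the operation, a pellet under the skin that held 0.5 mg of estradiol for release over 90 days. The other 4 arrays came from sham-operated rats, which kept their ovaries, and from early estradiol rats, which got the same pellet at the time of ovariectomy. Their values are printed beside the comparison. Each array measured RNA pooled in equal parts from 3 hearts, with 2 pools per group, so a spread between arrays is a spread between pools and not between single rats. How long after the pellet the hearts were collected is not stated in the labels.

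Estradiol is the main ovarian estrogen and acts through the nuclear receptors Esr1 and Esr2 and the membrane receptor Gper1. In the heart these receptors have been described in muscle cells, vessel walls and fibroblasts. Cardiac fibroblasts make most of the fibrous matrix, in which collagen types I and III form the load-bearing fibrils, and this matrix is known to increase in the ageing heart. Ovariectomy of old females followed by delayed replacement is a common animal model for hormone treatment begun some time after menopause.

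The values are log2 array intensities after quantile normalization over the 8 arrays, which gives every array the same distribution. Of 31042 probe sets that are no controls, 18625 passed a filter on mean intensity, and the brightest of them was taken for each of 10450 genes. The 3484 genes that make up the brightest 1 in 3 by mean intensity, at or above 7.08 on the log2 scale, are called bright. A difference is late estradiol minus ovariectomy, and the arrays were also set against each other in 2 pairs by replicate number. The replicate 1 array was dimmer than the replicate 2 array in all 4 groups before normalization (trimmed mean), and late estradiol replicate 1 was the dimmest, with a trimmed mean signal of 28.2 against 40.5 to 137 on the others. The Gapdh probe sets near the 3′ and 5′ ends of the transcript, whose ratio reflects RNA length, stood at 2.70 on that array and at 1.26 to 1.65 on the other 7. The same ratio for actin was highest on ovariectomy replicate 2 at 3.06, followed by late estradiol replicate 1 at 3.01, and was 1.71 to 2.75 on the other arrays. The 2 arrays of a group correlated at 0.83 to 0.87, and lowest for late estradiol. Heart tissue was clear on every array: the 13 cardiomyocyte markers measured averaged 12.28 to 12.42, with no marker below 11.07.

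No probe set passed an adjusted p of 0.05 in the limma fit with Benjamini-Hochberg adjustment, that is 0% of 18625. An unadjusted p under 0.05 was found for 812 of the 18625, less than the share of 0.05 expected with no difference at all. With the replicate number as a block 1 probe set passed, 0.00537% of those tested. In that fit 1495 had an unadjusted p under 0.05, more than that share. The probe set that passed measures Col3a1, the chain of type III collagen. Leaving out 1 array leaves its group with a single array, so those fits are described by effect size only. Genes are therefore described by their values on each array, and a gene said to lie higher or lower did not pass the test unless this is stated. Among the genes named here the adjusted p was 0.067 for Col3a1, 0.88 for Col1a1 and 0.94 or more for every other gene. With 2 arrays against 2, an exact permutation test of a single gene cannot give a two-sided p below 0.333.

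Over all 10450 genes the median difference was 0.00043, and in the bright genes 0.0071. The differences of the 2 pairs were nearly unrelated across all genes (Pearson r = 0.049, Spearman rho = 0.077, 53.0% with the same sign) and weakly related across bright genes (r = 0.16, rho = 0.17, 55.8% with the same sign). These are descriptions across genes, which are not independent replicates. The spread of the differences was wider in the pair of replicate 1 (SD 0.87) than in the pair of replicate 2 (SD 0.56). Dim genes account for much of this width, since the SDs over bright genes alone were 0.40 and 0.35.

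At least 1.5-fold lower in both pairs were 31 bright genes, 0.89% of the bright genes, and at least 1.5-fold higher in both were 16, or 0.459%. The split between lower and higher depended on the scaling: without normalization between arrays, where the median of all genes sat at -0.33, the counts were 177 and 0, and with median centring they were 49 and 4. Leaving out late estradiol replicate 1, an alternative chosen after the data were seen, 26 bright genes had the remaining late array at least 1.5-fold below both ovariectomy arrays and 20 had it above. Among them were 12 of the 31 lower and 7 of the 16 higher genes. Leaving out one of the other 3 arrays in the same way gave 42 to 151 lower and 59 to 84 higher, with 151 and 84 without late estradiol replicate 2. Just inside the limit of 1.5-fold were Col6a1, with a smaller pair difference of -0.59, and Tmtc1 with 0.59. Just outside it were Rhoa with -0.58 and Sppl2a with 0.58. On both late estradiol arrays 22 of the 31 lower genes were below all 4 arrays of the sham and early estradiol groups as well, compared with 298 of all 3484 bright genes. Since the 31 were picked for low values on the late arrays, that count is a description.

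**Figure D1:**
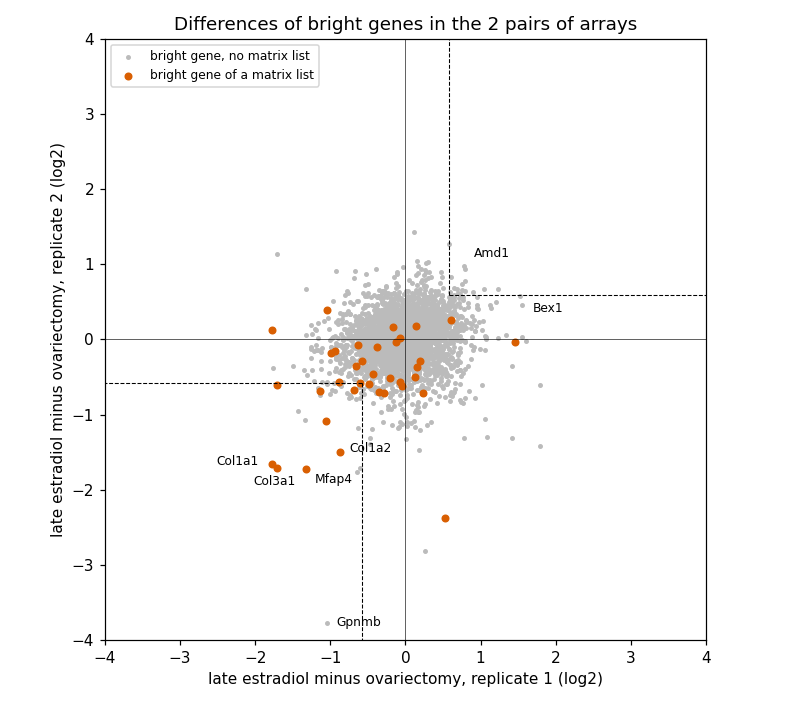
Each point is a bright gene, with the late estradiol minus ovariectomy difference (log2) in the replicate 1 pair on the horizontal axis and in the replicate 2 pair on the vertical axis. Orange points belong to an extracellular matrix list and the dashed corners mark 1.5-fold in both pairs, where Col3a1, Col1a1, Mfap4 and Col1a2 sit at the lower left and Gpnmb far below the others.

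Fibrillar collagens, the chains that build the fibrils of the heart's interstitium, include the gene with the smallest p, Col3a1. Col3a1 measured 10.59 and 10.64 on the ovariectomy arrays and 8.81 and 8.98 on the late estradiol arrays, against 9.91 and 9.74 with sham surgery and 10.21 and 9.75 with early estradiol. The late arrays were the lowest of the 8 and the ovariectomy arrays the highest. The difference was -1.72 ± 0.19 (SE of the limma fit, 2 arrays per group), or 3.29-fold lower. The adjusted p was 0.067 in limma and 0.018 with the replicate block. This SE, like every one printed after it, pools the spread within all 4 groups and is moderated toward genes of similar intensity. It is not the spread of the compared arrays alone. Col1a1, the main chain of type I collagen, had 7.98 and 8.31 with ovariectomy and 6.28 and 6.60 with late estradiol. Sham arrays had 7.30 and 6.88 and early estradiol arrays 8.20 and 7.59, so that the late arrays again lay below the other 6. Its difference was -1.71 ± 0.29, or 3.26-fold, with an adjusted p of 0.88 in limma.

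Col1a2 encodes the partner chain of type I collagen, and its late arrays were again the lowest of the 8. It had 8.13 and 8.35 with ovariectomy, 7.26 and 6.85 with late estradiol, 8.19 and 7.55 with sham surgery and 8.78 and 7.84 with early estradiol, a difference of -1.19 ± 0.34. Col5a2, a chain of the type V collagen that starts fibrils, had 7.10 and 7.57 with ovariectomy and 6.42 and 6.89 with late estradiol, or -0.68 ± 0.30. In that gene the sham value of 6.84 fell between the late ones, so the late arrays did not stand apart from sham. The gene lists were chosen with earlier results of these data known, so counts over a list are descriptions. Of 11 fibrillar chains listed, 8 passed the intensity filter. Both late arrays were below both ovariectomy arrays for 5 of these 8, where 13.6% of all genes showed this, and the median difference was -0.70. The fifth was Col5a1 at -0.72 ± 0.37. The 3 dim chains Col24a1, Col27a1 and Col5a3, at 0.02, 0.14 and 0.36, did not separate the groups. Without late estradiol replicate 1 the list's median was -0.39. On late estradiol replicate 2 the list's median deviation from the 8-array means, -0.04, was above both sham arrays, at -0.17 and -0.06.

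Stretches upstream of 4 genes are printed to show what their promoters hold, because collagen genes lay low together and Amd1 had the smallest unadjusted p of the genes higher in both pairs. They are RefSeq sequences of the build GRCr8, read 5′ to 3′ on the gene's strand. Positions count back from the annotated start, with -1 the base before it, and capitals mark the motifs found. Col1a2 is shown from -250 to -151 (chr4:33518307-33518406, plus strand), with a CCAAT box on the opposite strand and a TATA box.
Col1a2: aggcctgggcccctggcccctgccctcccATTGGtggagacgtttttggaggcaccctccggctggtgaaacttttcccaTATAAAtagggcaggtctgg
Col5a2 is shown from -150 to -1 (chr9:55090152-55090301, minus strand), with a SMAD site, the core that TGF-beta effectors bind.
Col5a2: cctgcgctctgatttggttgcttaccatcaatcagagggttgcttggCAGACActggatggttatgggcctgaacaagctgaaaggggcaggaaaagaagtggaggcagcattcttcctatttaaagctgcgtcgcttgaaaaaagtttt
Col6a1 is shown from -150 to -1 (chr20:11905540-11905689, plus strand), with an AP-1 site.
Col6a1: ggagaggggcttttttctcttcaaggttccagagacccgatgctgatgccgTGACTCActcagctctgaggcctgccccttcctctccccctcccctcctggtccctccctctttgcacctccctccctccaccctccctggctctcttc
Amd1 is shown from -100 to -1 (chr20:45265983-45266082, minus strand), with a GC box and a TATA box.
Amd1: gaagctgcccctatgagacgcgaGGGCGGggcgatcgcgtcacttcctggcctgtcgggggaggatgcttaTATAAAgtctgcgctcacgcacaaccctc

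Both strands of the 250 bases before the start were searched in 33469 promoters. The motifs and their shares were TATAAA in 12.9%, CCAAT in 34%, GGGCGG in 30.5%, CAGACA in 17.2%, TGANTCA in 6.34% and AGGTCA, a single arm of the estrogen response element, in 14.1%. Promoters were on hand for 20 of the 30 lower genes with a name, 14 of the 16 higher genes and 8 of the 11 fibrillar collagens. The single arm occurred in 4 of the 20, in 2 of the 14 and in 0 of the 8. The full palindrome of 2 arms with 3 bases between them was in 3 of all promoters and in none of these sets. Other motifs in the 20 lower genes numbered 8 promoters with GGGCGG, 5 with CCAAT, 2 with CAGACA, 2 with TGANTCA and 1 with TATAAA. In the 14 higher genes the counts were 8, 4, 3, 1 and 1. In the 8 fibrillar collagens they were 6, 3, 1, 0 and 1, so that only Col5a2 had CAGACA and only Col1a2 had TATAAA. A match describes letters only, and a missing match says nothing of the factor.

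Collagens outside the fibrils lay low too. Type VI collagen forms beaded filaments around cells, and its 3 common chains were all below both ovariectomy arrays. Col6a3 had 8.30 and 8.39 with ovariectomy but 6.59 and 7.78 with late estradiol, or -1.16 ± 0.35. Its late replicate 1 was far lower than late replicate 2, and sham arrays at 7.92 and 7.47 overlapped the late ones. Col6a1 had 8.05 and 8.30 against 7.45 and 7.72, or -0.60 ± 0.23, and Col6a2 differed by -0.86 ± 0.34. The fibril-associated chain Col14a1 differed by -0.54 ± 0.22. Of the 9 chains kept out of 23, 8 lay lower, 5 with no overlap (against 13.6% of all genes), and the median was -0.60.

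In the basement membrane, the sheet on which muscle cells and capillaries rest, the largest bright difference was in Col15a1, a chain with sugar side chains that lies beside capillaries. It measured 7.93 and 8.24 with ovariectomy, 6.87 and 7.16 with late estradiol, 7.71 and 7.60 with sham surgery and 7.52 and 7.40 with early estradiol. The late arrays were below the other 6, and the difference was -1.07 ± 0.23. The dim Col18a1, parent of endostatin, differed by -1.68 ± 0.67. Laminin and nidogen were less apart, with Lamc1 at -0.44 ± 0.17 and Nid1 at -0.58 ± 0.27. Lamb2 went the other way with 0.43 ± 0.18. The type IV chains Col4a1 and Col4a2, the network's backbone, were at -0.32 ± 0.20 and -0.36 ± 0.26. Over the 18 members kept, 14 were lower, 8 with no overlap (against 13.6% of all genes). The median was -0.28, or -0.16 without ovariectomy replicate 2.

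**Figure D2:**
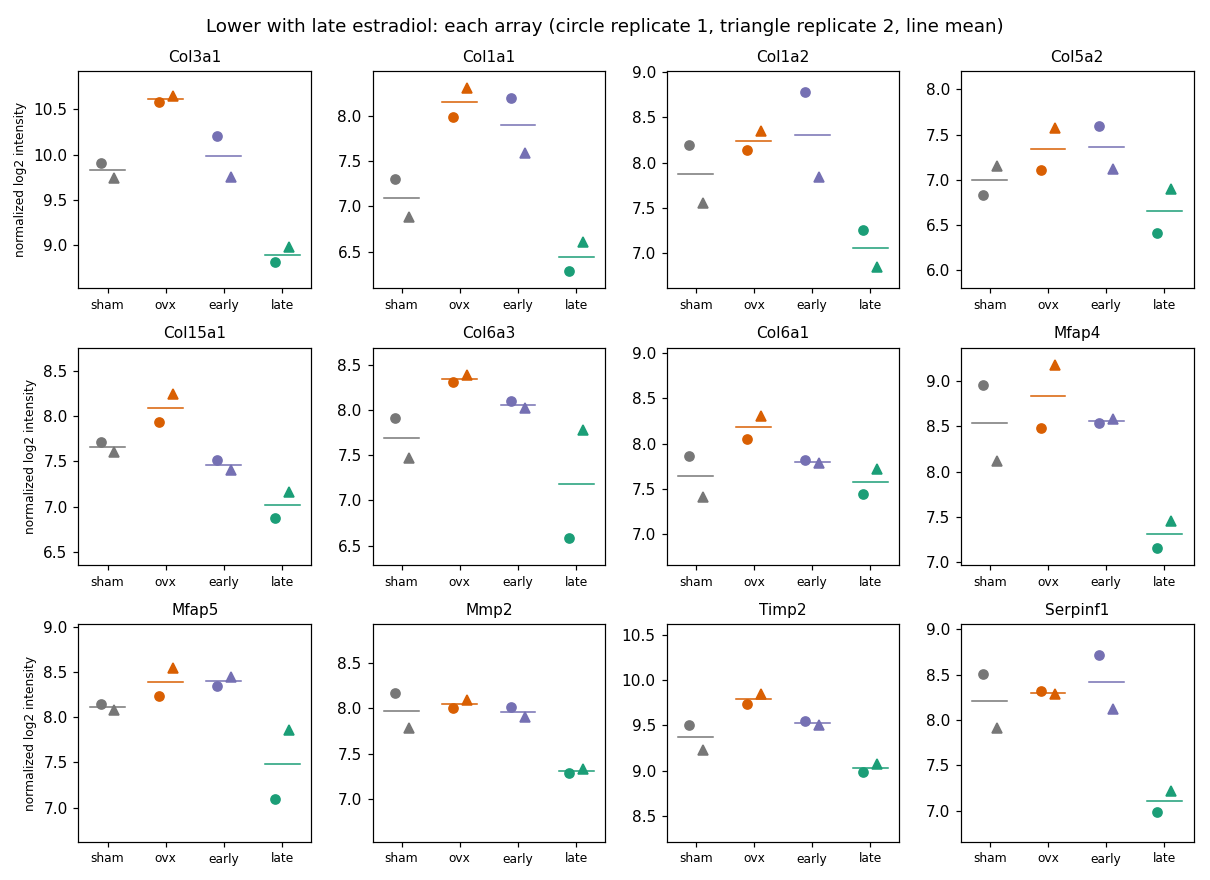
Normalized log2 intensity (vertical axis, each panel with its own range) of 12 genes on the 8 arrays, by group on the horizontal axis. Circles are replicate 1, triangles replicate 2 and lines the mean of a group, and in each panel both late estradiol arrays lie below both ovariectomy arrays.

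Elastic fibres give the wall its recoil, and their microfibrils carry Mfap4 and Mfap5. Mfap4 had 8.49 and 9.18 with ovariectomy, 7.16 and 7.46 with late estradiol, 8.96 and 8.12 with sham surgery and 8.54 and 8.59 with early estradiol. Both late arrays were below all others, with a difference of -1.53 ± 0.31, or 2.88-fold. Mfap5 followed with 8.23 and 8.55 against 7.10 and 7.86, or -0.91 ± 0.26, its late replicate 1 well below replicate 2. Fibrillin, the backbone of microfibrils, encoded by Fbn1, was at -0.50 ± 0.24, Ltbp4, which holds latent TGF-beta, at -0.54 ± 0.28 and Efemp1, a fibulin, at -0.83 ± 0.41. The elastin gene Eln measured 5.63 and 5.85 with ovariectomy but 0.22 and 5.42 with late estradiol. A single array thus sets its fitted difference of -2.92 ± 1.25. Of 17 members kept, 14 lay lower, 5 with no overlap (against 13.6% of all genes), with a median of -0.45.

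Enzymes and chaperones that mature collagen varied more. Loxl1, a lysyl oxidase that cross-links elastin and collagen and lies just below the bright limit, had 7.54 and 7.07 with ovariectomy, 6.06 and 6.02 with late estradiol, 7.37 and 7.13 with sham surgery and 7.29 and 6.95 with early estradiol. The late arrays were close to each other and below every other array, and the difference was -1.26 ± 0.27. Serpinh1, the collagen chaperone of the endoplasmic reticulum, had 8.88 and 9.27 against 7.99 and 8.71, or -0.72 ± 0.27. The enhancers of procollagen cleavage Pcolce and PCOLCE2 were at -1.71 ± 0.70 and -0.66 ± 0.27. Sparc, a collagen-binding glycoprotein, overlapped between the groups at -0.45 ± 0.32. The 21 members kept had 15 lower, 5 with no overlap (against 13.6% of all genes), and a median of -0.27. This median was -0.0033 without ovariectomy replicate 2, -0.15 without late estradiol replicate 1 and -0.54 without ovariectomy replicate 1.

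Small proteoglycans, which bind collagen fibrils and set their width, showed smaller steps. Lum had 9.62 and 9.77 with ovariectomy and 8.97 and 9.42 with late estradiol, or -0.50 ± 0.20. Bgn differed by -0.52 ± 0.26 and Dcn, the most intense of them, by -0.36 ± 0.17. Prelp and Aspn were at -0.81 ± 0.35 and -0.92 ± 0.43, and Ogn overlapped at -0.33 ± 0.33. Among matricellular proteins, which signal from the matrix and bear no load, Postn (periostin) had 6.89 and 8.02 against 5.91 and 6.44, or -1.28 ± 0.41. Fn1, fibronectin, was 6.92 and 9.21 with ovariectomy and 7.45 and 6.83 with late estradiol, so that ovariectomy replicate 2 alone was high. Sparcl1 stayed within its spread at -0.08 ± 0.16. Ccn2, a growth factor of connective tissue, lay higher at 0.71 ± 0.37, with overlap. Over 24 members kept, 18 were lower, 11 with no overlap (against 13.6% of all genes), and the median was -0.40.

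Taking all 6 matrix lists as one, 96 of 132 genes passed the filter, with 73 lower and 23 higher. Both late arrays were below both ovariectomy arrays for 39 of the 96, where 13.6% of all genes showed this. At least 1.5-fold lower in both pairs were 19 of the 96, where 3.04% of all genes were. At least 1.5-fold higher in both were 0, where 2.03% of all genes were. Since the matrix lists were chosen with earlier results of these data known, these counts are descriptions and no test. The median difference was -0.37, with -0.36 in the replicate 1 pair and -0.37 in the replicate 2 pair. As deviations from each gene's mean over the 8 arrays, the medians were -0.36 and -0.11 on the late estradiol arrays, 0.01 and 0.22 on the ovariectomy arrays, 0.05 and -0.06 on the sham arrays and 0.25 and 0.10 on the early estradiol arrays. Both late arrays were lowest, although late estradiol replicate 2 was only slightly below the second sham array. The spread between arrays of one group was 0.13 (SD) on this scale.

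Enzymes that cut the matrix and their inhibitors were mixed. Mmp2, gelatinase A, had 8.004 and 8.09 with ovariectomy, 7.29 and 7.33 with late estradiol, 8.17 and 7.78 with sham surgery and 8.02 and 7.90 with early estradiol. The late arrays agreed closely and were below the other 6, at -0.74 ± 0.22. Timp2, its inhibitor and cofactor, had 9.73 and 9.84 against 8.98 and 9.07, or -0.76 ± 0.17, again below all other arrays. Timp1 was at -1.90 ± 0.90 with late replicate 1 at 3.08, and Timp3 lay higher at 0.51 ± 0.25. Over 21 members 14 were lower and the median was -0.12.

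Other secreted or matrix-linked products were among the 31 lower bright genes. Serpinf1, pigment epithelium-derived factor, had 8.32 and 8.28 with ovariectomy, 6.99 and 7.21 with late estradiol, 8.51 and 7.92 with sham surgery and 8.72 and 8.12 with early estradiol, or -1.20 ± 0.27. Ccdc80, a secreted matrix protein, had 9.20 and 9.43 against 8.55 and 8.64, or -0.72 ± 0.17. In both genes the late arrays were lower than the other 6. Islr, a marker of mesenchymal cells below the bright limit, had 6.75 and 6.85 against 4.97 and 5.71, or -1.46 ± 0.33.

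Fibroblast markers as a list had 15 of 17 members lower, 9 with no overlap (against 13.6% of all genes), and a median of -0.47. Of the 17, 7 stand in the matrix lists too, and the other 10 had 9 lower, 3 with no overlap, and a median of -0.32. The mean level of the 17 markers was 7.32 and 7.83 on the late estradiol arrays, 7.99 and 8.34 with ovariectomy, 7.96 and 7.95 with sham surgery and 8.33 and 8.10 with early estradiol. The list's median was -0.25 without late estradiol replicate 1 and -0.98 without late estradiol replicate 2. In whole-heart RNA, fewer cells of a type and less RNA per cell cannot be told apart.

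Genes of macrophages, the phagocytes that reside in the heart, followed ovariectomy replicate 2. Gpnmb, a lysosomal glycoprotein of lipid-laden macrophages, had 7.18 and 10.69 with ovariectomy, 6.14 and 6.92 with late estradiol, 6.54 and 7.14 with sham surgery and 7.55 and 7.32 with early estradiol. The value on ovariectomy replicate 2 stood far above the other 7, and the difference was -2.41 ± 0.84. Fcer1g, the signalling chain of Fc receptors, had 8.18 and 9.60 against 7.53 and 7.83, or -1.21 ± 0.39. Lcp1, an actin bundler of leukocytes, had 7.16 and 8.41 against 6.56 and 6.70, or -1.16 ± 0.37, and the pore-forming protein gene Mpeg1 was at -1.78 ± 0.53. Spp1, osteopontin, named after its values were seen, was 11.21 on ovariectomy replicate 2 and between 0.95 and 6.88 on the other 7 arrays. Of 24 macrophage markers 19 were lower, 7 with no overlap (against 13.6% of all genes), with a median of -0.56. Ovariectomy replicate 2 also had the highest actin ratio, whose part in the result was not tested. The median was -0.06 without ovariectomy replicate 2, with 13 lower and 11 higher, and -1.18 without ovariectomy replicate 1. The mean marker level was 6.21 and 7.56 on the ovariectomy arrays, 5.82 and 6.56 on the late ones, 5.87 and 6.43 with sham surgery and 6.86 and 6.70 with early estradiol.

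MHC class II genes, which present peptides to T cells, were lower in 10 of 11, 6 with no overlap (against 13.6% of all genes). Their median was -0.56, or -0.30 without ovariectomy replicate 2. RT1-DMa, which loads peptides, had 6.29 and 6.08 with ovariectomy and 4.85 and 4.38 with late estradiol, or -1.57 ± 0.41. That gene was high on both ovariectomy arrays and not only on replicate 2. RT1-Db1 was at -1.30 ± 0.39 and RT1-Ba at -0.93 ± 0.35. Cd74, the invariant chain, had 10.46 and 10.98 against 9.998 and 10.32, or -0.56 ± 0.21. The macrophage and class II lists share 2 genes, and without them the macrophage median was -0.58.

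**Figure D3:**
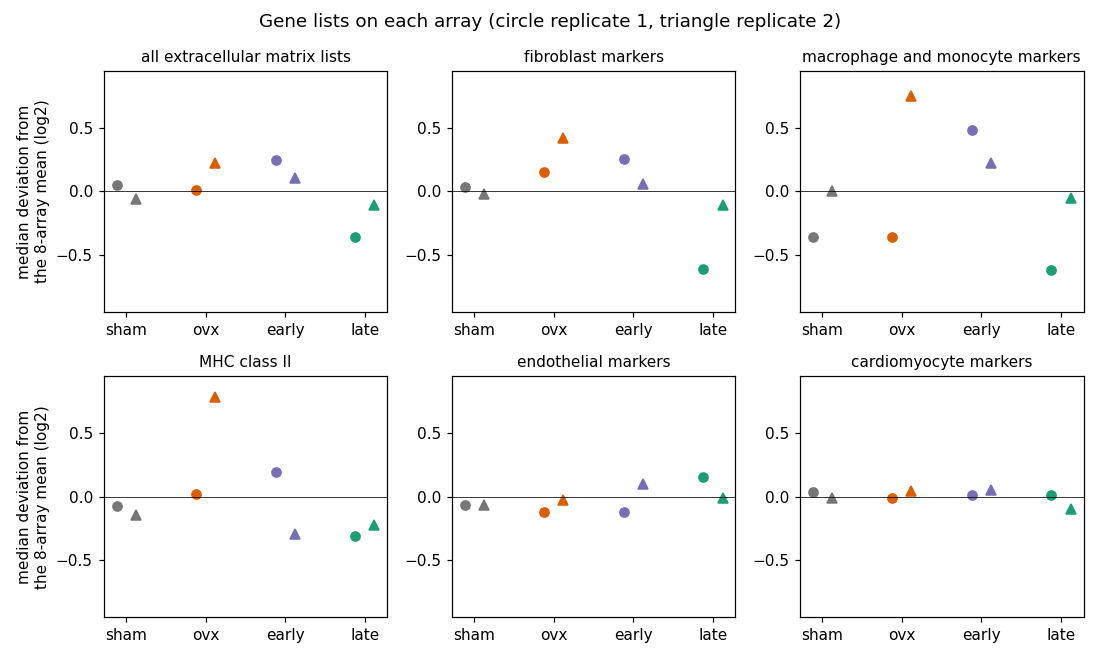
Median deviation of a list's genes from their 8-array means (log2, vertical axis) on each array, by group on the horizontal axis, with circles for replicate 1 and triangles for replicate 2. Matrix and fibroblast lists are lowest on the late estradiol arrays, the macrophage and MHC class II lists peak on ovariectomy replicate 2 at 0.75 and 0.78, and cardiomyocyte markers stay within 0.10 of 0.

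The rest of the 31 lower bright genes came from no single list. Fam234a, a membrane protein gene, had 7.86 and 7.66 with ovariectomy, 6.42 and 6.70 with late estradiol, 7.99 and 7.56 with sham surgery and 7.10 and 7.19 with early estradiol. Both estradiol groups were thus below the other groups, and the difference was -1.19 ± 0.25. Actg1, cytoplasmic gamma-actin, had 10.97 and 11.61 against 10.35 and 10.44, or -0.90 ± 0.22, and Parvb, a focal adhesion protein that binds actin, was at -0.83 ± 0.23. Npepps, a cytosolic aminopeptidase, had 8.27 and 8.09 against 7.54 and 7.35, or -0.74 ± 0.22. Smpdl3a, a phosphodiesterase related to acid sphingomyelinase, and Abhd16a, a phosphatidylserine lipase, were at -0.86 ± 0.26 and -0.81 ± 0.34. Genes of membrane traffic and protein turnover were Scamp3 (-0.90 ± 0.30), Nucb1 (-0.82 ± 0.26), Nploc4 (-0.74 ± 0.24) and Ap2s1 (-0.65 ± 0.31). Ttc7b and Mtch1 were at -0.73 ± 0.26 and -0.63 ± 0.29. Csnk1d, a kinase of clock proteins, at -0.75 ± 0.23, and Tle5, a corepressor, at -0.70 ± 0.42, turned positive when all probe sets of the gene were averaged. Over the 12 lower genes with further probe sets, 9 of 16 of these had the same sign as the gene, and over all bright genes 923 of 1688 did.

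Of the bright genes higher with late estradiol in both pairs, Amd1 had the smallest unadjusted p, 7.3e-04 in limma (adjusted p 0.94). It encodes adenosylmethionine decarboxylase, which feeds polyamine synthesis. It had 8.42 and 8.12 with ovariectomy, 9.20 and 9.10 with late estradiol, 8.75 and 8.80 with sham surgery and 8.86 and 8.80 with early estradiol. The ovariectomy arrays were the lowest and the late arrays the highest of the 8. The difference was 0.88 ± 0.18, or 1.84-fold. Srm, spermidine synthase of the same pathway, was opposite at -1.01 ± 0.46, and over 10 polyamine genes 4 were higher and 6 lower.

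Perp, a desmosomal membrane protein, had the same order as Amd1, with 8.33 and 8.34 on the ovariectomy arrays and 9.05 and 8.94 on the late arrays. Sham arrays at 8.57 and 8.51 and early estradiol arrays at 8.72 and 8.68 lay between, and the difference was 0.66 ± 0.17. Another desmosomal gene, Dsg2, had 8.38 and 8.38 against 9.33 and 8.81, or 0.69 ± 0.21, while the plaque protein gene Jup was at -0.56 ± 0.19. Asb11, a substrate adaptor of a ubiquitin ligase found in muscle, had 7.51 and 7.56 against 8.26 and 8.30, or 0.75 ± 0.21. Cavin2, a coat protein of caveolae, had 9.003 and 9.30 with ovariectomy and 9.69 and 9.97 with late estradiol, or 0.68 ± 0.19, with the late arrays above all others. Srp54a, part of the signal recognition particle, had 6.94 and 6.78 against 7.74 and 7.55, or 0.79 ± 0.24. Mtif2, a starter of mitochondrial translation, had 7.10 and 7.85 against 8.33 and 8.52, or 0.95 ± 0.34.

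Egr1, a transcription factor that answers growth signals within minutes, had 6.32 and 6.77 with ovariectomy and 7.12 and 7.71 with late estradiol, or 0.87 ± 0.36. Sham arrays, at 6.89 and 7.04, lay between the ovariectomy and the late arrays. Early estradiol arrays had 8.14 and 7.11, above and just below the late values. Txlnb, a muscle protein, had 9.41 and 8.96 against 10.45 and 9.62, or 0.86 ± 0.29. Cyyr1 and Smarca2, the latter an ATPase of chromatin remodelling, were at 0.77 ± 0.24 and 0.72 ± 0.24. Fbxo9 and Peli1, both of ubiquitin ligases, were at 0.72 ± 0.31 and 0.66 ± 0.27. The others were Zscan26 (0.70 ± 0.27), Eeig2 (0.66 ± 0.21), Gstz1 of tyrosine breakdown (0.62 ± 0.23) and Tmtc1 (0.61 ± 0.27). Smarca2 turned to -0.03 when its probe sets were averaged. Over the 6 higher genes with further probe sets, 5 of 7 had the same sign.

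Bex1 and Adgrf5 had small p-values without 1.5-fold in both pairs. Bex1, an adaptor protein gene, had 7.90 and 8.05 with sham surgery, 8.52 and 9.07 with ovariectomy, 9.41 and 8.89 with early estradiol and 10.07 and 9.53 with late estradiol, or 1.01 ± 0.27 over ovariectomy. Sham arrays were lowest and late arrays highest. Adgrf5, an adhesion receptor of endothelium, had 8.76 and 8.80 with ovariectomy and 9.52 and 9.36 with late estradiol, or 0.66 ± 0.19. Its late arrays stood above all 6 others, which lay between 8.56 and 8.89.

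**Figure D4:**
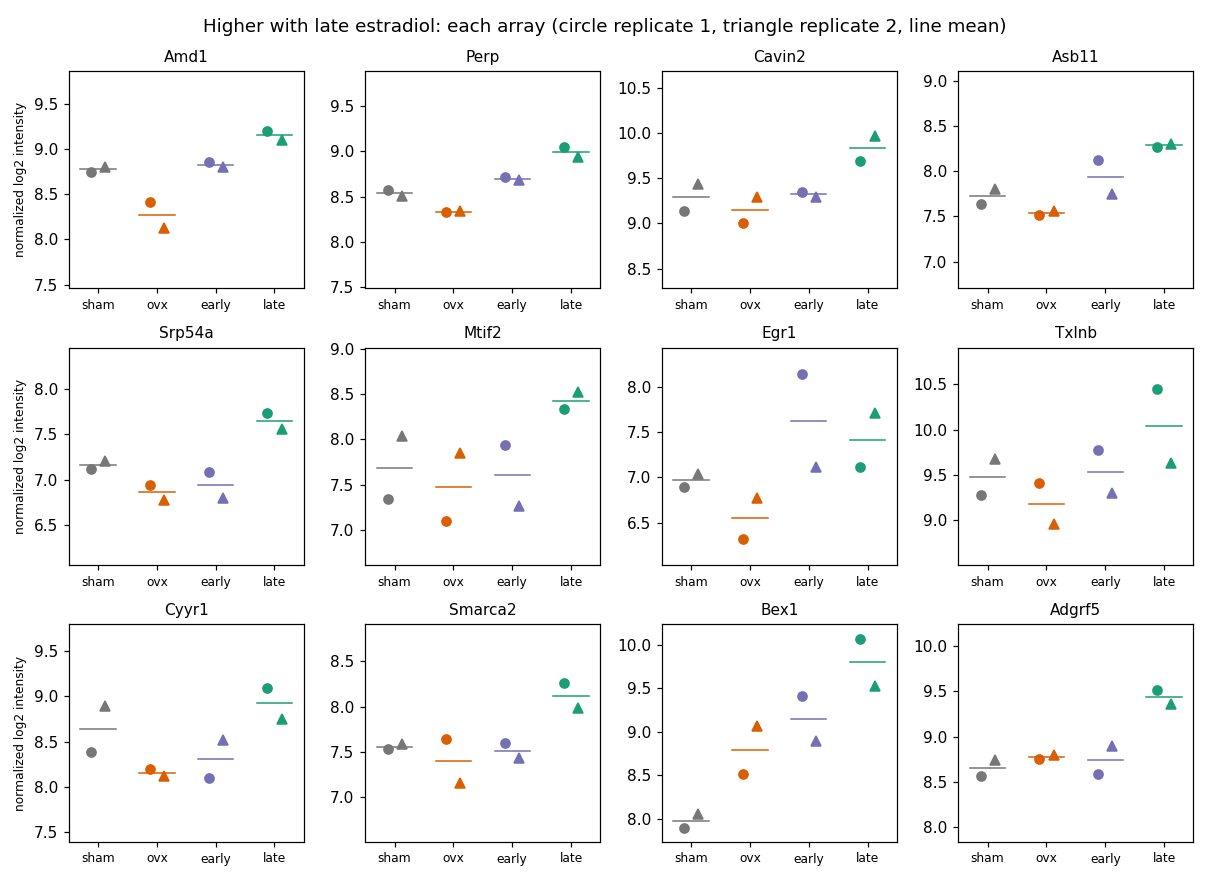
Normalized log2 intensity (vertical axis, each panel with its own range) of 12 genes on the 8 arrays, by group on the horizontal axis, with circles for replicate 1, triangles for replicate 2 and lines for group means. Amd1 and Perp are lowest on the ovariectomy arrays and highest on the late estradiol arrays.

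Endothelial markers had 11 of 17 members higher and a median of 0.22. For 4 of the 17 both late arrays were above both ovariectomy arrays, where 14.9% of all genes were. In the replicate 1 pair the median was 0.34, and in the replicate 2 pair 0.0040. The median was 0.06 without ovariectomy replicate 1 and -0.16 without normalization, where all genes had a median of -0.33. The receptor of angiopoietins Tek was at 0.54 ± 0.22 and the VEGF receptor Kdr at 0.48 ± 0.22. Fabp4, a lipid carrier of capillaries, was at 0.33 ± 0.17. Plvap, which forms the diaphragms of fenestrated vessels, was opposite, with 4.89 and 5.13 on the ovariectomy arrays and 2.69 and 3.25 on the late ones. Sham arrays had 2.64 and 3.73 for this dim gene, within reach of the late values.

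Muscle cell genes differed little. Cardiomyocyte markers had a median of -0.01, or 0.06 with median centring, and all 13 were between -0.25 (Ckm) and 0.19. Myh6 and Myh7, the fast and slow myosin heavy chains, were at -0.06 ± 0.16 and 0.10 ± 0.14, and the calcium pump gene Atp2a2 at -0.04 ± 0.14. The signs of these 3 genes turned under some other settings. The load markers Nppa and Nppb, natriuretic peptides, were at 0.59 ± 0.67 and 0.31 ± 0.17. Nppa was 8.85 on the first sham array and 10.03 to 11.81 on the other 7, a spread wider than the difference. Acta1, the skeletal actin of the fetal programme, had 11.86 and 12.25 with ovariectomy and 11.76 and 11.07 with late estradiol, or -0.64 ± 0.22. Tcap, a cap protein of titin, had 11.37 and 11.55 against 11.89 and 11.84, or 0.41 ± 0.14. Its sham arrays, 11.84 and 12.05, were as high as the late ones.

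Of the estrogen receptors, Gper1 alone passed the intensity filter, at 5.63 and 2.28 with ovariectomy and 4.36 and 2.43 with late estradiol, so that no difference could be read. Esr1, Esr2 and the classic target Pgr did not pass. Ppargc1a, a coactivator of mitochondrial genes, had 8.40 and 7.70 against 8.88 and 8.52, or 0.66 ± 0.28. The known responsive genes Fos and Ptgis were at 0.87 ± 0.46 and -0.89 ± 0.28, and over 29 genes of receptors, coregulators and responsive genes 15 were higher and 14 lower.

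Energy metabolism genes had medians near 0, and in 3 of the first 4 lists given here more members were lower than higher. Medians were -0.10 over 36 genes of fatty acid uptake and oxidation, -0.07 over 19 genes of the TCA cycle, 0.03 over 35 genes of respiratory complex I and -0.06 over 31 genes of glycolysis and glycogen. Lower were 25 of the 36, 15 of the 19, 15 of the 35 and 24 of the 31. A further list, respiratory complexes II to V, had 23 of 38 lower and a median of -0.02. The pairs differed for fatty acid genes, at -0.22 in the replicate 1 pair and 0.02 in the replicate 2 pair, and for TCA genes, at -0.24 and 0.05. Single genes with a tight spread were Idh3a, an isocitrate dehydrogenase subunit (-0.59 ± 0.19), Cox6a1 of cytochrome oxidase (-0.52 ± 0.15) and Ldha, lactate dehydrogenase (-0.37 ± 0.13). In the opposite direction were Eno3, muscle enolase, and Ndufv1 of complex I, at 0.35 ± 0.15 and 0.32 ± 0.15. Antioxidant genes were lower in 28 of 39, 8 with no overlap (against 13.6% of all genes), with a median of -0.14, or -0.045 without late estradiol replicate 1 and -0.07 without ovariectomy replicate 2. Among them Gpx1, glutathione peroxidase, had 12.14 and 12.29 against 11.89 and 11.89, or -0.33 ± 0.14.

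Ribosomal protein genes were higher in 30 of 38, 9 with no overlap (against 14.9% of all genes and 16.7% of bright genes), but by a median of only 0.08. With late estradiol replicate 2 left out 21 of 38 were lower, and without normalization 33 were. Cell cycle genes were lower in 16 of 21, 7 with no overlap (against 13.6% of all genes), at a median of -0.37. That median was -0.17 without ovariectomy replicate 2. Only 5 of the 21 were bright. Top2a, the topoisomerase of dividing cells, had 3.86 and 5.29 against 3.16 and 1.87. Immediate early genes were split, with 19 of 29 higher, 9 with no overlap (against 14.9% of all genes), and a median of 0.07. Arc, an activity-regulated gene, had 1.09 and 3.33 against 5.84 and 4.10 and Egr3 3.55 and 3.44 against 4.93 and 4.98. Ier3 and Gadd45b, stress-responsive genes, were opposite at -0.84 ± 0.26 and -0.91 ± 0.37. Clock genes had a median of 0.15 over 21, with 0.31 in the replicate 1 pair and 0.01 in the replicate 2 pair. That median was 0.0017 without ovariectomy replicate 1 and 0.41 without late estradiol replicate 2. Without late estradiol replicate 1 it was 0.0145, below the all-gene median of 0.039. Wee1, a kinase under clock control, was at 1.27 ± 0.46 and Npas2, a partner of Bmal1, at 1.14 ± 0.54. The medians of the ribosomal, immediate early and clock lists were below 0 without normalization, at -0.16, -0.18 and -0.17, yet above the all-gene median of -0.33.

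**Figure D5:**
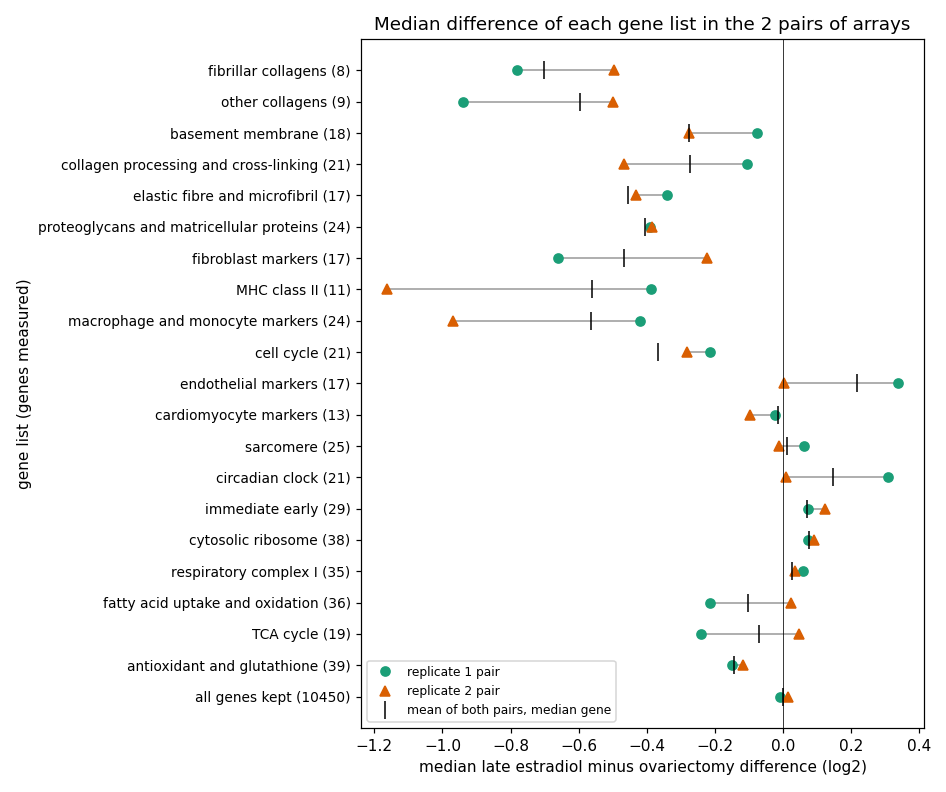
Median late estradiol minus ovariectomy difference (log2, horizontal axis) of 20 gene lists and of all genes (vertical axis, number of genes measured in brackets), with circles for the replicate 1 pair, triangles for the replicate 2 pair and a bar for the mean of both pairs. All 6 matrix lists are below 0 in both pairs, and metabolic and muscle lists lie near 0.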

How the data were processed

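The authors deposited 1 table of MAS5 signal intensity per probe set and array (MAS5 per the submitters' processing notes). No source used here states the scaling or gives detection calls. Intensities were taken to log2 and quantile normalized over the 8 arrays. Of 31099 probe sets 57 controls were left out, and those under the 40th percentile of mean log2 intensity were filtered. Symbols came from the platform annotation: 20826 probe sets had 1 symbol, 436 several and 9780 none, and only the first kind names a gene. Group means over 8 arrays were fitted with limma 3.58.1 (R 4.3.3), an intensity trend and Benjamini-Hochberg adjustment. The steps were tested on simulated data. The number of pools limits the precision. A p-value sets the difference against the spread between arrays within all 4 groups, moderated toward genes of similar intensity.

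Deviations of same-numbered arrays from their group means correlated at 0.28 to 0.33 over the 6 pairs of groups (0.31 for ovariectomy with late estradiol), so the numbers were taken to pair the arrays, though the labels do not say what they mark. The fit with this block is an alternative.

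Genes named were those past the threshold in either fit, the 15 bright genes per direction with the largest smaller pair difference, the 5 per direction with the smallest p and at least 1.5-fold, and up to 4 of smallest p in each list described. Bright matrix genes and 10 fixed genes were added, with the rest of the 31 and 16 genes and the last fibrillar collagens for completeness. Spp1, Rhoa and Sppl2a were named after their values were seen. The members and lists were chosen with earlier results of these data known. Alternatives were other scalings, an offset, filters, the block, averaged probe sets, other limits and leaving out each array.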

Additional observations from a re-analysis of the deposited data

How the results depend on the processing

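Between 0 and 67 probe sets passed the limma test when 1 array was left out: 67, all lower, without late estradiol replicate 2, 2 (Gpnmb and Lgals3) without ovariectomy replicate 1, and 0 without either of the other arrays. Exactly 1 call, Col3a1, passed the limma test with the replicate block (adjusted p 0.018). The same call passed with 32 added before the log, no filter, a filter at the 60th percentile and averaged probe sets (adjusted p 0.041, 0.041, 0.048 and 0.040). Without normalization, with median centring, with only the 4 arrays compared and without the intensity trend, 0 passed. Bright genes 1.5-fold lower and higher in both pairs numbered 31 and 16. The counts were 177 and 0 without normalization, 49 and 4 with median centring, 19 and 7 with 32 added, 55 and 28 with no filter, 59 and 31 over the brighter 1 in 2 genes, 8 and 6 over the brightest sixth, and 6 and 0 at 2-fold. Leaving out 1 array gave 26 to 151 lower and 20 to 84 higher, since 1 array then stands for its group. The matrix median of -0.37 was -0.71 without normalization, or -0.38 relative to all genes, and ran from -0.50 without late estradiol replicate 2 to -0.25 without ovariectomy replicate 2. The block changed no other call.

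Of 136 genes under 9 other settings, 14 of 1214 values changed sign, and 16 of 544 did on leaving out 1 array. The block, the fit without an intensity trend and the fit on only the 4 arrays compared cannot change a difference. Nor can a filter, as long as the gene is kept. The count of 14 therefore does not measure how stable the values are. With averaged probe sets the values that changed sign were Csnk1d 0.25, Tle5 0.55, Smarca2 -0.029, Clu 0.20, Myh7 -0.15 and Atp2a2 0.051. Median centring gave Atp2a2 0.12 and Myh6 0.10. Without normalization, Nppb was -0.0045, Fabp4 -0.0059, Ndufv1 -0.022, Eno3 -0.00031, Col24a1 -0.15 and Col27a1 -0.16. The cause was not tested. On leaving out 1 array, values ran from -2.23 to 1.12 for Gper1, -6.66 to 3.60 for Spp1, -2.07 to 0.22 for Fn1, -0.82 to 0.17 for Ogn, -0.22 to 0.11 for Myh6, -0.0067 to 0.21 for Myh7, -0.090 to 0.016 for Atp2a2, -0.12 to 1.31 for Nppa, -1.11 to 1.82 for Col5a3, -0.82 to 0.87 for Col24a1 and -0.16 to 0.44 for Col27a1. Dim genes and single pools limit all values.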
